A study of Mus musculus with 12 samples.

Results

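The BMP antagonists described here are *Nog*, *Chrd*, *Chrdl1*, *Grem1*, *Fst*, *Fstl1*, *Bmper*, *Twsg1* and *Bambi*, 9 of the 36186 rows of an RNA-Seq table, taken by gene symbol from a list of secreted and membrane inhibitors of BMP and activin signaling. All 9 symbols had a single row with a value in all 12 libraries. Expression was measured in chondrocytes that were cut by laser capture microdissection (LCM) from the forelimb zeugopod, the segment of the radius and ulna, of E15.5 mouse embryos on a mixed 129/CD-1 background. The WT groups were the resting, the proliferative and the hypertrophic compartments of the cartilage, with 3 libraries each. The remaining 3 libraries were from *Hoxa9,10,11*-/-/*Hoxd9,10,11*-/- mutants (*aadd*), homozygous for germline frameshifts in the first exons of *Hoxa9*, *Hoxa10*, *Hoxa11*, *Hoxd9*, *Hoxd10* and *Hoxd11*. The labels name no treatment. Per the study's methods, all zeugopod chondrocytes of the mutant were pooled into a single kind of sample, so an *aadd* library does not stand for an isolated compartment, although its label reads resting. For the samples called hypertrophic in the methods, the labels read hyperproliferative. Some perichondrial cells were captured with the chondrocytes. The study describes its 3 replicates as independent sets and names no animals, so a *P* value here measures the spread between libraries.

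BMPs are secreted ligands of the TGF-beta family that bind receptor serine/threonine kinases and signal through SMAD proteins, and in growing cartilage they drive both chondrocyte proliferation and maturation. Their antagonists act mostly outside the cell. Noggin, chordin, chordin-like 1 and gremlin 1 bind BMPs and keep them from their receptors, follistatin does the same mainly for activins, twisted gastrulation and BMPER bind BMPs and chordin family proteins and can either block or help signaling, and BAMBI is a membrane protein that resembles a type I receptor without the kinase. In the limb, noggin is needed for joints and for limiting cartilage growth, and gremlin 1 is known for keeping the signaling loop of the limb bud going.

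The values are NRPKM, read counts scaled to transcript length and library depth (RPKM) and further normalized between libraries, so that levels of different genes can be compared per length. The deposited table held no counts. From the most frequent value above 0 in a set of sensory receptor and keratin-associated genes, taken as 1 read, depth was estimated. The libraries held an estimated 1890000 to 3240000 reads, and 1 read per kilobase was worth 0.309 to 0.53 NRPKM. Hypertrophic chondrocyte markers summed to 1808 to 3907 NRPKM in WT hypertrophic, 681 to 956 in WT proliferative, 97.9 to 124 in WT resting and 66.7 to 92.1 in *aadd*, and the 9 cartilage matrix markers of the table were detected in every library. Hypertrophic replicate 1 stood apart from the other 2 hypertrophic libraries, with root mean square log2 distances of 1.11 and 1.037 to replicates 2 and 3, which were 0.613 from each other. Its summed osteoclast markers were at 51.5 NRPKM against 1351 and 995 in replicates 2 and 3, its endothelial markers at 27.1 against 313 and 220, and its macrophage markers at 33.2 against 448 and 366. Its cartilage matrix markers summed to 2902 NRPKM against 654 and 932, and its hypertrophic chondrocyte markers to 1808 against 3567 and 3907. The latter markers were not alike in spread over the hypertrophic libraries. *Spp1* ran from 24.1 to 1083 NRPKM, *Mmp13* from 3.05 to 735 and *Ibsp* from 718 to 1331. *Col10a1* ran from 166 to 264, *Alpl* from 121 to 162, *Panx3* from 221 to 344 and *Sp7* from 112 to 154. Changes called in the hypertrophic group are given with and without replicate 1 because it stood apart, for genes outside the 9 after the data had been seen. The mutated *Hox* genes were still transcribed in *aadd*, with *Hoxa11* at 5.17 to 11.1 NRPKM against 11.3 to 30.5 in WT resting and *Hoxd11* at 25.1 to 35.4 against 4.34 to 7.31. A frameshift does not remove the transcript, so these levels do not check the genotype.

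*Grem1*, *Chrd* and *Fstl1* were the 3 members whose level was higher in every *aadd* library than in every WT proliferative and WT hypertrophic library, and the 250 bases upstream of their transcription starts are shown for that reason, from the RefSeq annotation of GRCm38.p6. Of all genes tested below, 15.3% were higher in *aadd* in this way against proliferative and 17% against hypertrophic. The share that met both was not counted. Capitals mark GGCGCC, a string of the kind bound by BMP-activated SMAD proteins, and TTTATG, of the kind bound by posterior HOX proteins, which reads CATAAA on the other strand. The 2 marked strings do not overlap each other. TTTACG, a second string of the HOX kind, was searched as well, and all searches covered both strands. The regions are chr2:113758649-113758898 on the minus strand for *Grem1*, chr16:20732877-20733126 on the plus strand for *Chrd* and chr16:37776805-37777054 on the plus strand for *Fstl1*.
Grem1: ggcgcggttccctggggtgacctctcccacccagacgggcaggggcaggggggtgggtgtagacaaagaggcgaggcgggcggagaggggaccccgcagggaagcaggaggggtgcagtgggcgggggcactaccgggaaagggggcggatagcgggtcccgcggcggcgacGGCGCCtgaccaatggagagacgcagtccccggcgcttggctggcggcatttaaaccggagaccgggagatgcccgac
Chrd: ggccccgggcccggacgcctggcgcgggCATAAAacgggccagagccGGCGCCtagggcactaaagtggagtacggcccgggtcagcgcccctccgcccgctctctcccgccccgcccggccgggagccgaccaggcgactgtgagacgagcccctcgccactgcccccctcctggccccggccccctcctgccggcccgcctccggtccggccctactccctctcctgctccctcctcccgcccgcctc
Fstl1: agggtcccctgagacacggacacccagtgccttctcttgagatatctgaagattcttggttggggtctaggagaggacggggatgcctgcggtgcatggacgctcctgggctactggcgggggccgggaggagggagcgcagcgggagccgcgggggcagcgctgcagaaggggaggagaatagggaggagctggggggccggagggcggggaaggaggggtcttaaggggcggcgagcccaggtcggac
GGCGCC was present 1 time each upstream of *Grem1* and *Chrd*, and in 9.59% of 32851 promoters of this length. TTTATG was present 1 time upstream of *Chrd*, and in 10.8% of all promoters. TTTACG, which 2.61% of the promoters held, was absent from these windows, and *Fstl1* held none of the searched strings. Upstream sequence was also available for *Bmper* and *Twsg1*, which held none of the strings either. GC content was 72.0% for *Grem1*, 78.0% for *Chrd*, 68.0% for *Fstl1*, 71.6% for *Bmper* and 64.4% for *Twsg1*, all above the median promoter at 52.4%. A string that matches is a description of the letters only.

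Expression of the antagonists differed between the 4 groups, but not in a single direction. The mean level of 8 of the 9 was lowest in WT hypertrophic, while that of *Bambi* was highest there and lowest in *aadd*. For *Chrd*, *Fst*, *Fstl1* and *Twsg1* the hypertrophic mean was within the spread of the next lowest group. A moderated F test over the 4 groups was run in limma on log2(NRPKM + 0.1) for the 10936 genes that reached 5 NRPKM in at least 3 of the 12 libraries. Of the 9 members, 8 passed this filter and *Chrd* did not. The F test gave an unadjusted *P* of at most 0.05 for 7 of the 8, where 31% of all genes tested had one, and an adjusted *P* under 0.05 for 4 of the 8, against 13.8% of all genes. In descending order of the F statistic these were *Fstl1* (24.8, limma adjusted *P* = 0.0026), *Bambi* (19, adjusted *P* = 0.0055), *Bmper* (10.8, adjusted *P* = 0.02) and *Grem1* (8.1, adjusted *P* = 0.039). *Grem1* reached 5 NRPKM only in resting and *aadd* libraries, so its F test was not independent of the filter. Over the alternative settings the adjusted *P* ran from 0.001 to 0.017 for *Fstl1*, 0.0019 to 0.024 for *Bambi*, 0.0056 to 0.099 for *Bmper* and 0.019 to 0.13 for *Grem1*. *Chrdl1*, *Nog* and *Twsg1* had adjusted *P* values of 0.11, 0.12 and 0.13. For *Fst* the F statistic was 1.07 and the adjusted *P* 0.54. The unadjusted *P* of *Chrdl1* and *Nog* passed 0.05 without hypertrophic replicate 2 (F of 2.98 and 2.06) or hypertrophic replicate 3 (2.99 and 2.87), that of *Chrdl1* also without proliferative replicate 2 (3.58) or 3 (3.48), and that of *Nog* also without resting replicate 3 (3.76) or proliferative replicate 3 (3.77) or with no filter on expression (3.73). *Twsg1* depended on more libraries, with 7 of the 12 each taking its *P* over 0.05 when left out, as did having no filter.

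**Figure D1:**
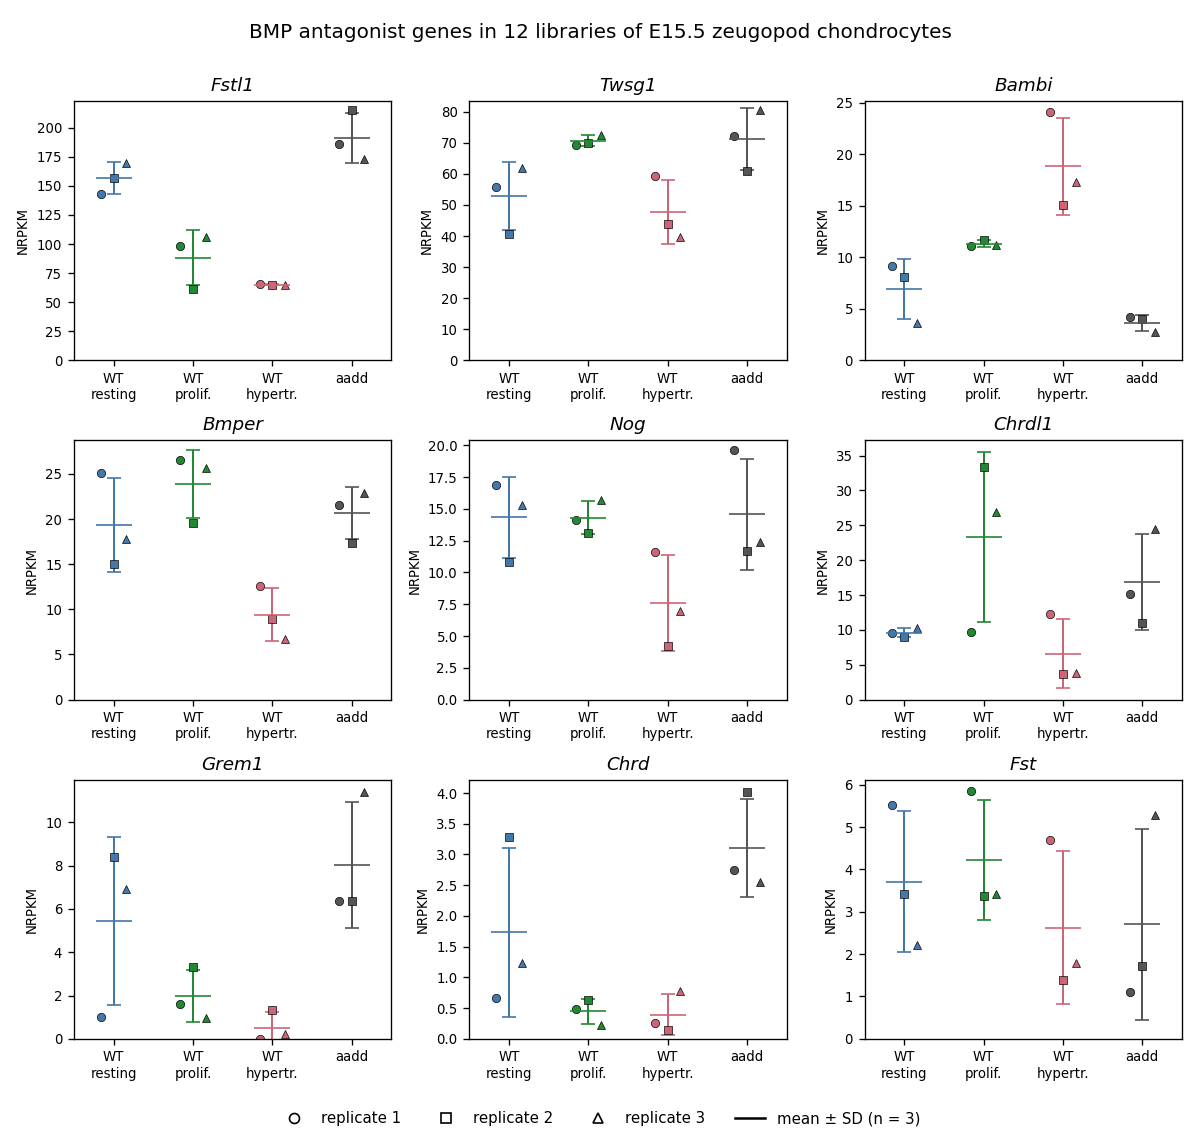
NRPKM (linear axis from 0, a separate scale for each gene) of the 9 BMP antagonist genes in the 12 libraries, with circles, squares and triangles for replicates 1, 2 and 3 and lines for the mean ± SD (n = 3). *Fstl1* stepped down from resting to proliferative and hypertrophic libraries and was highest in *aadd*, *Bambi* ran the other way, and the hypertrophic circle (replicate 1) lay above the other 2 hypertrophic points for all genes but *Grem1* and *Chrd*.

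In the pairwise comparisons a gene was taken as changed at an unadjusted *P* of at most 0.05 with an FC of at least 2 between WT compartments or at least 1.5 between *aadd* and WT resting, which are the limits used in the study. Between WT proliferative and WT resting, 1 of the 8 tested members changed, and it was higher in proliferative, against 5.53% of all genes tested, 2.56% higher and 2.97% lower. Between WT hypertrophic and WT proliferative 4 of 8 changed, all lower in hypertrophic, where 9.67% of all genes changed, 5.32% higher and 4.34% lower. The 4 included *Grem1*, which passed the filter on expression only through resting and *aadd* libraries. Between WT hypertrophic and WT resting 5 of 8 changed, 1 higher and 4 lower, where 13% of all genes changed, 5.84% higher and 7.2% lower. Between *aadd* and WT resting 1 of 8 changed, upward, against 6.56% of all genes, 3.78% higher and 2.78% lower. The median log2 difference of the 8 members was 0.27, -0.91, -0.89 and 0.21 in these comparisons in the same order, and that of all genes tested -0.06, 0.04, -0.02 and 0.01. Without hypertrophic replicate 1 the changed members numbered 4 of 8 against proliferative, all lower, and 6 of 8 against resting, 1 higher and 5 lower, against 18.4% and 19.2% of all genes, and their median log2 differences were -1.35 and -1.27. After Benjamini-Hochberg adjustment over all genes tested, *Fstl1* between hypertrophic and resting was the only member under 0.05 (6.36% of all genes in that comparison). In the other comparisons 0 members had an adjusted limma *P* under 0.05, as did 0.622%, 0% and 0.119% of all genes, and at an unadjusted *P* of at most 0.05 there were 2, 6, 5 and 1 members over all 4 comparisons against 17.1%, 19.3%, 26.4% and 9.58% of all genes. The comparisons share libraries, 3 of the 4 using the resting ones. With 3 libraries against 3, the exact permutation test of a single gene has 0.1 as its smallest two-sided *P*.

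**Figure D2:**
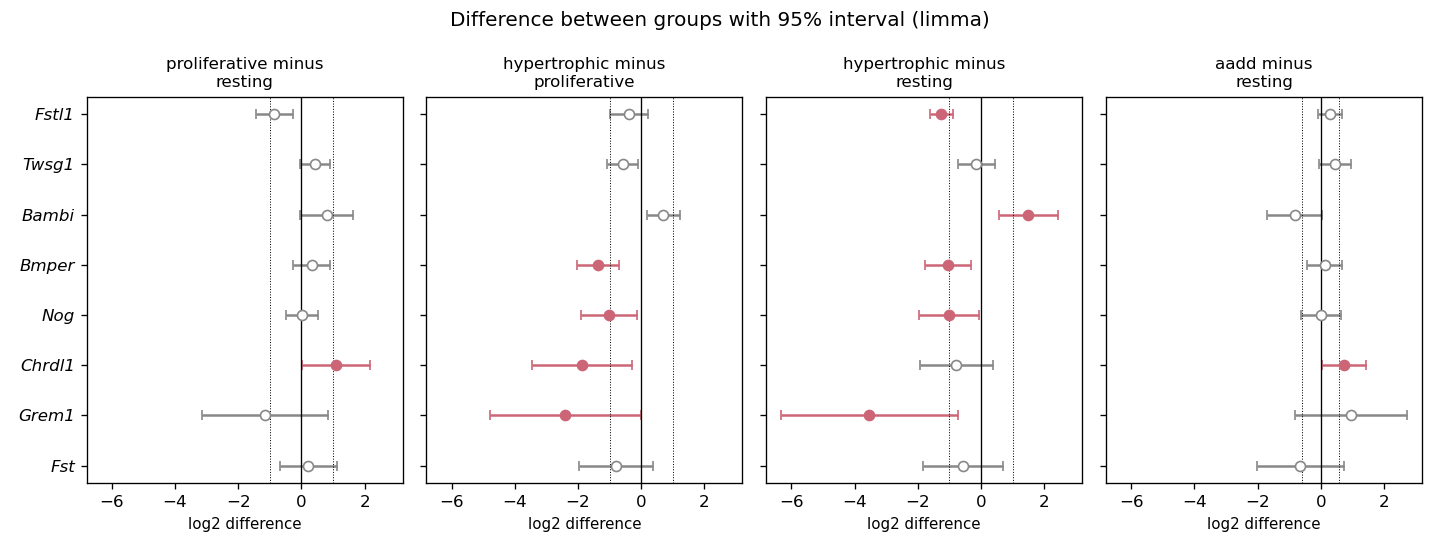
Log2 difference of log2(NRPKM + 0.1) between groups for the 8 tested antagonists, with 95% intervals from limma (points, n = 3 against 3). Filled points met the *P* and FC limits, dotted lines mark the FC limit, and the hypertrophic panels hold 9 of the 11 filled points, 8 of them below 0.

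*Nog* encodes noggin, a secreted dimer that binds BMP2, BMP4 and related ligands. Its row covers a single exon of 1922 bases on chr11:89300638-89302559 (minus strand, mm10). *Nog* was at 16.9, 10.8 and 15.3 NRPKM in WT resting replicates 1 to 3, at 14.1, 13.1 and 15.7 in WT proliferative, at 11.6, 4.18 and 6.99 in WT hypertrophic and at 19.6, 11.7 and 12.4 in *aadd*. The hypertrophic libraries were all below the proliferative ones, hypertrophic replicate 1 lay within the resting range, and the resting, proliferative and *aadd* libraries overlapped. In log2 terms *Nog* fell by 1.02 between proliferative and hypertrophic (SE 0.37, limma adjusted *P* = 0.23) and by 1.0 between resting and hypertrophic (SE 0.39, adjusted *P* = 0.17). Both changes were larger without hypertrophic replicate 1, at -1.38 (adjusted *P* = 0.028) and -1.37 (adjusted *P* = 0.03). Against proliferative the limits were missed without each of the other libraries, with log2 differences of -1.03, -1.08 and -0.95 without proliferative replicates 1, 2 and 3 and -0.66 and -1.02 without hypertrophic replicates 2 and 3, and also with a constant of 1 in place of 0.1 (-0.92) or no filter (-1.02). Against resting they were missed without resting replicate 1 (-0.87) or 3 (-0.95) or hypertrophic replicate 2 (-0.64) or 3 (-1.0), with a constant of 1 (-0.91), with no filter (-1.0) and after rescaling by the median of ratios (-0.99). Means were 14.3 ± 3.14 NRPKM in resting, 14.3 ± 1.33 in proliferative and 14.6 ± 4.39 in *aadd* (SD, n = 3), and the 95% interval of the log2 difference between *aadd* and resting ran from -0.63 to 0.65.

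Chordin, encoded by *Chrd*, traps BMPs through cysteine-rich repeats and is inactivated by tolloid proteases. *Chrd* (chr16:20733127-20742384, plus strand) had the lowest mean of the members in each WT compartment, and its row overlaps that of *Thpo* on the other strand. In *aadd* the mean of *Fst* was lower (2.7 against 3.11 NRPKM). Its level was 0.66, 3.29 and 1.24 NRPKM in WT resting, 0.479, 0.637 and 0.22 in WT proliferative, 0.253, 0.151 and 0.775 in WT hypertrophic and 2.75, 4.02 and 2.55 in *aadd*. The *aadd* libraries held an estimated 28.7 to 34.8 reads of the gene, against 7.67 to 31.1 in resting, 1.63 to 4.93 in proliferative and 1.92 to 9.07 in hypertrophic. All *aadd* libraries were above all proliferative and hypertrophic ones, and resting replicate 2 lay between the *aadd* values. All proliferative libraries were below all resting ones, at the closest with 0.637 against 0.66 NRPKM. With no filter on expression, which brought 23070 genes into the test, the F test over the 4 groups gave an adjusted *P* of 0.059 for *Chrd*. The log2 difference was then -1.55 between proliferative and resting (limma adjusted *P* = 0.44), -0.27 between hypertrophic and proliferative (0.86), -1.83 between hypertrophic and resting (0.3) and 1.06 between *aadd* and resting (0.73). Strand use in counting is not given in the sources used here, so reads of *Chrd* and *Thpo* in their overlap cannot be told apart.

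*Chrdl1*, on chrX:143285674-143394262 (minus strand), encodes a secreted relative of chordin that binds BMP4 and other ligands. Its values were 9.6, 8.95 and 10.3 NRPKM in WT resting, 9.76, 33.3 and 26.9 in WT proliferative, 12.3, 3.61 and 3.8 in WT hypertrophic and 15.1, 11.0 and 24.5 in *aadd*. The resting libraries were close together. Proliferative replicate 1 stayed within the resting range while replicates 2 and 3 were above it, and hypertrophic replicate 1 was above all resting libraries while replicates 2 and 3 were below them. *Chrdl1* rose by 1.10 log2 units from resting to proliferative (SE 0.45, limma adjusted *P* = 0.29), fell by 1.88 from proliferative to hypertrophic (SE 0.65, adjusted *P* = 0.21) and was higher by 0.73 in *aadd* than in resting (SE 0.29, adjusted *P* = 0.5). All 3 *aadd* libraries were above all 3 resting libraries, as they were for 8.08% of all genes tested.

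The 3 calls of *Chrdl1* depended on single libraries and on the processing. The rise in proliferative met the limits without proliferative replicate 1 (1.63, adjusted *P* = 0.049), and did not without resting replicate 1 (1.10), 2 (1.05) or 3 (1.15) or proliferative replicate 2 (0.75) or 3 (0.91), with no filter (1.10), after rescaling by the median of ratios (1.14) or with all 12 libraries in the fit (1.10). The fall in hypertrophic did not meet them without proliferative replicate 2 (-1.53) or 3 (-1.69) or hypertrophic replicate 2 (-1.57) or 3 (-1.61), or with replicate number as a block (-1.88). Without hypertrophic replicate 1 that fall was -2.45 (adjusted *P* = 0.04), and the log2 difference between hypertrophic and resting, -0.78 with all libraries (adjusted *P* = 0.34), became -1.35 (adjusted *P* = 0.0043). In *aadd* the limits were missed without resting replicate 1 (0.73), 2 (0.68) or 3 (0.78) or *aadd* replicate 1 (0.77) or 3 (0.42), with no filter (limma adjusted *P* = 0.68) and with all 12 libraries in the fit (adjusted *P* = 0.87).

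Gremlin 1, a secreted cystine-knot protein encoded by *Grem1* (chr2:113748675-113758648, minus strand), binds BMP2, BMP4 and BMP7. *Grem1* was at 1.03, 8.38 and 6.92 NRPKM in WT resting, 1.63, 3.32 and 0.969 in WT proliferative, 0, 1.32 and 0.205 in WT hypertrophic and 6.36, 6.38 and 11.4 in *aadd*. Resting replicate 1 was as low as the proliferative libraries, the hypertrophic libraries were near 0, and the *aadd* libraries were in the upper resting range or above it. The hypertrophic values rest on an estimated 0, 17.7 and 2.53 reads, and 3 reads would be 0.31 NRPKM in replicate 1, where the gene was listed at 0. *Grem1* fell by 3.54 log2 units from resting to hypertrophic (SE 1.16, limma adjusted *P* = 0.12) and by 2.40 from proliferative to hypertrophic (SE 0.98, adjusted *P* = 0.26). These sizes depend on the constant of 0.1 added to each value, and with a constant of 1 they were -1.92 and -1.0. Without hypertrophic replicate 1 neither fall met the limits (-2.63, adjusted *P* = 0.13, and -1.49, adjusted *P* = 0.25). The fall from resting was also missed without resting replicate 2 (-3.01) or 3 (-3.14) or hypertrophic replicate 3 (-3.43), and that from proliferative without proliferative replicate 1 (-2.45), 2 (-1.95) or 3 (-2.79) or hypertrophic replicate 3 (-2.30), with no filter (-2.40) or after quantile normalization (-2.21). Between proliferative and resting the log2 difference was -1.14 (95% interval -3.13 to 0.85), and without resting replicate 1 it was -2.06 (adjusted *P* = 0.16). Between *aadd* and resting it was 0.94 with an interval of -0.83 to 2.71.

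*Fst* encodes follistatin, which binds activins almost irreversibly and some BMPs more weakly, and lies on chr13:114452262-114458730 (minus strand), where the annotation has an antisense gene, *Gm47040*. Follistatin transcripts were at 5.51, 3.41 and 2.22 NRPKM in WT resting, 5.85, 3.37 and 3.42 in WT proliferative, 4.7, 1.4 and 1.78 in WT hypertrophic and 1.1, 1.72 and 5.29 in *aadd*. All 4 groups overlapped, and replicate 1 was the highest library of each WT group. *Fst* met the limits in none of the 4 comparisons, with adjusted limma *P* values of 0.38 to 0.8 and 95% intervals of the log2 difference that reached from -0.68 to 1.12 for proliferative against resting and from -2.03 to 0.73 for *aadd* against resting. Without hypertrophic replicate 1 it was lower in hypertrophic than in proliferative (-1.31, adjusted *P* = 0.043) and than in resting (-1.09, adjusted *P* = 0.096), and without *aadd* replicate 3 it was lower in *aadd* than in resting (-1.28, adjusted *P* = 0.72).

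*Fstl1* encodes follistatin-like 1, a secreted glycoprotein of the follistatin domain family that binds BMP4 and is abundant in mesenchyme. It lies on chr16:37777055-37836516 (plus strand). *Fstl1* reached 143, 157 and 170 NRPKM in WT resting, 97.9, 61.3 and 106 in WT proliferative, 65.9, 65 and 64.6 in WT hypertrophic and 186, 215 and 173 in *aadd*. All resting libraries were above all proliferative and hypertrophic ones, and all *aadd* libraries were above all 9 WT libraries, which 2.82% of the genes tested were. Means fell from 156 ± 13.4 NRPKM in resting to 65.2 ± 0.687 in hypertrophic (SD, n = 3), a log2 difference of -1.26 (SE 0.16, limma adjusted *P* = 0.011). This fall met the limits in all 12 alternative settings, with values from -1.35 to -1.20 and adjusted *P* values of 0.0032 to 0.063, and was -1.27 without hypertrophic replicate 1. The proliferative mean was 88.5 ± 23.9 NRPKM. From resting to proliferative the log2 difference was -0.86 (SE 0.24, adjusted *P* = 0.19), with an FC of 1.81 that was under the limit of 2. Without proliferative replicate 3 it was -1.01 (adjusted *P* = 0.23) and met the limit. Proliferative and hypertrophic libraries overlapped through proliferative replicate 2, and their log2 difference was -0.40 (95% interval -1.0 to 0.20), or -0.41 without hypertrophic replicate 1. In *aadd* the mean was 191 ± 21.5 NRPKM, and the log2 difference from resting was 0.29 (95% interval -0.10 to 0.68, adjusted *P* = 0.65), under the FC limit of 1.5.

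*Bmper* encodes a secreted protein with chordin-like repeats that binds BMPs and chordin, and covers chr9:23223076-23485202 (plus strand). Its level was 25.1, 15 and 17.8 NRPKM in WT resting, 26.5, 19.6 and 25.6 in WT proliferative, 12.6, 8.89 and 6.76 in WT hypertrophic and 21.6, 17.4 and 22.9 in *aadd*. Every hypertrophic library was below every library of the other 3 groups, and those 3 groups overlapped. From proliferative to hypertrophic *Bmper* fell by 1.37 log2 units (SE 0.28, limma adjusted *P* = 0.13), the lowest unadjusted *P* of the members in this comparison (0.0023). The fall met the limits in all 12 alternative settings, at -1.60 to -1.16 and adjusted *P* values of 0.015 to 0.45. From resting to hypertrophic it fell by 1.04 (SE 0.3, adjusted *P* = 0.094), and by less than the FC limit without resting replicate 1 (-0.84) or hypertrophic replicate 3 (-0.83) or with a constant of 1 (-0.97). Without hypertrophic replicate 1 both falls were larger, at -1.60 and -1.27 (adjusted *P* = 0.026 for the latter). Between *aadd* and resting the log2 difference was 0.12 (95% interval -0.43 to 0.68).

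Twisted gastrulation, encoded by *Twsg1* (chr17:65921972-65951187, minus strand), binds BMPs together with chordin and eases the cleavage of chordin. *Twsg1* was at 55.9, 40.8 and 62 NRPKM in WT resting, 69.3, 70.1 and 72.6 in WT proliferative, 59.4, 44 and 39.8 in WT hypertrophic and 72.2, 60.9 and 80.7 in *aadd*. The proliferative libraries lay close together above all resting and all hypertrophic libraries, and resting and hypertrophic libraries overlapped. The differences were small. The log2 difference was 0.44 between proliferative and resting (SE 0.2, limma adjusted *P* = 0.33) and -0.58 between hypertrophic and proliferative (SE 0.2, adjusted *P* = 0.22), an FC of 1.5, which became -0.75 without hypertrophic replicate 1 (adjusted *P* = 0.035). Between *aadd* and resting it was 0.44 (SE 0.22, adjusted *P* = 0.6), with *aadd* replicate 2 below resting replicate 3. None of these met the FC and *P* limits.

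*Bambi*, a transmembrane pseudoreceptor gene that is itself induced by BMP signaling, was the only tested member with a higher mean in WT hypertrophic than in WT proliferative and WT resting. It was at 9.14, 8.1 and 3.63 NRPKM in WT resting, 11.1, 11.7 and 11.2 in WT proliferative, 24.1, 15.1 and 17.3 in WT hypertrophic and 4.2, 4.01 and 2.73 in *aadd*. The WT compartments did not overlap, in the order resting, proliferative, hypertrophic, and *aadd* was below proliferative and hypertrophic and overlapped resting through resting replicate 3. From resting to hypertrophic *Bambi* rose by 1.5 log2 units (SE 0.39, limma adjusted *P* = 0.076), from a mean of 6.96 ± 2.93 to 18.8 ± 4.72 NRPKM (SD, n = 3). The rise met the limits in all 12 alternative settings, at 1.09 to 1.75 and adjusted *P* values of 0.013 to 0.2, and was 1.31 without hypertrophic replicate 1. That library, with the lowest summed endothelial, osteoclast, macrophage and osteoblast markers of the hypertrophic group, had the highest *Bambi* level of that group. It was also the highest for *Nog*, *Chrdl1*, *Fst*, *Fstl1*, *Bmper* and *Twsg1*. The steps in between were 0.80 from resting to proliferative (SE 0.35, adjusted *P* = 0.31) and 0.70 from proliferative to hypertrophic (SE 0.22, adjusted *P* = 0.19), with FC values of 1.74 and 1.63 that were under the limit. The second step was 0.51 without hypertrophic replicate 1. Without resting replicate 1 the first step was 1.04 (adjusted *P* = 0.24) and met it.

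In *aadd*, *Bambi* averaged 3.64 ± 0.802 NRPKM, and the log2 difference from resting was -0.83 (SE 0.37, 95% interval -1.71 to 0.05, limma adjusted *P* = 0.55). It did not meet the unadjusted *P* limit with all libraries. Without resting replicate 3, the resting library with the least *Bambi*, the difference was -1.24 (adjusted *P* = 0.22) and met both limits. It also met them after the libraries were rescaled by the median of ratios (-0.85, adjusted *P* = 0.5) or quantile normalized (-0.86, adjusted *P* = 0.49), with all 12 libraries in the fit (-0.83, adjusted *P* = 0.62), and with replicate number as a block (-0.83, adjusted *P* = 0.36).

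Counted over the 9 members without a test, the 3 hypertrophic libraries were separate from the 3 proliferative ones for 4 members (24.2% of all genes tested), *Bambi* above (13.3%) and *Nog*, *Bmper* and *Twsg1* below (10.9%), and from the 3 resting ones for 3 (32%), *Bambi* above (14.1%) and *Fstl1* and *Bmper* below (17.8%). The proliferative libraries were above the resting ones for *Twsg1* and *Bambi* (9.83%) and below them for *Chrd* and *Fstl1* (14.2%), 4 members in all. *Chrd* was separate only by 0.637 against 0.66 NRPKM, an estimated 4.79 and 7.67 reads, and was not among the genes tested. Of the 8 tested members 3 were separate, against 24% of all genes tested. The *aadd* libraries were above the resting ones for *Chrdl1* and *Fstl1* and below for 0 members (15.4% of all genes were separate in either direction, 8.08% above and 7.34% below). Against proliferative, *aadd* was higher for *Chrd*, *Grem1* and *Fstl1* (15.3% of all genes) and lower for *Bambi* (10.2%). Against hypertrophic it was higher for *Nog*, *Chrd*, *Grem1*, *Fstl1*, *Bmper* and *Twsg1* (17%) and lower for *Bambi* (14%). The mutant samples hold all zeugopod chondrocytes, and in such bulk samples fewer cells of a type and less RNA per cell cannot be told apart.

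Summed over the 9 genes, the level per length was 255 to 289 NRPKM in WT resting, 216 to 263 in WT proliferative, 142 to 191 in WT hypertrophic and 329 to 336 in *aadd*. The *aadd* sums were above and the hypertrophic sums below those of the other libraries, and the upper hypertrophic value was that of replicate 1. *Fstl1* made up 53.6% to 61.3% of the sum in resting, 28.3% to 41.4% in proliferative, 34.5% to 45.5% in hypertrophic and 51.6% to 64.8% in *aadd*. Without it the sums were 98.8 to 124 NRPKM in resting, 139 to 157 in proliferative, 77.4 to 125 in hypertrophic and 117 to 163 in *aadd*. The *aadd* sums then overlapped those of all WT groups, resting and hypertrophic overlapped, and proliferative was above both. The ratio of *Bambi* to *Fstl1* ran from 2.14% to 6.39% in resting, 10.5% to 19.1% in proliferative, 23.2% to 36.6% in hypertrophic and 1.57% to 2.26% in *aadd*.

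**Figure D3:**
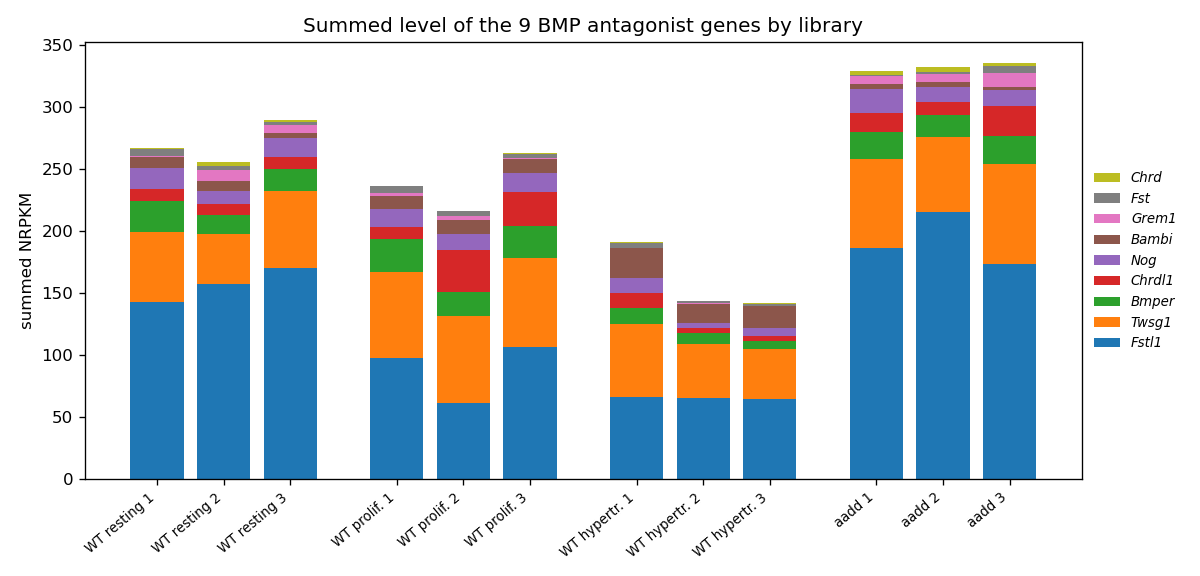
Summed NRPKM of the 9 genes (stacked bars from 0, 1 bar per library, genes by color). The *aadd* bars reached 329 to 336 NRPKM, the hypertrophic bars 142 to 191, and the lowest segment, *Fstl1*, was the largest in all bars but that of proliferative replicate 2, where *Twsg1* was larger.

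Markers of other cell types moved with some of these groups. The 10 joint markers summed to 331 to 354 NRPKM in *aadd*, 184 to 219 in resting, 73.2 to 111 in proliferative and 71.1 to 89.4 in hypertrophic, and all 10 were detected in every library. The study had already reported *Gdf5*, *Osr1*, *Dcx* and *Dkk3* of this list as higher in *aadd* from these data. Of 9 joint markers tested, 5 were higher in *aadd* than in resting (3.78% of all genes) and 0 lower. *Osr2*, *Erg* and *Cux1* were not among them (0.48, 0.15 and 0.11 log2 units). *Prg4* had a lower mean in *aadd* (2.62 NRPKM) than in resting (14.4, from 1.51 to 34.4). Markers of perichondrium and fibrous mesenchyme summed to 331 to 628 NRPKM in *aadd*, 276 to 413 in resting, 347 to 648 in proliferative and 396 to 612 in hypertrophic, so these sums overlapped. Single markers differed. Of 9 tested, 3 were higher in *aadd* than in resting (3.78% of all genes), *Twist1* (1.39 log2 units), *Aspn* (1.55) and *Pdgfra* (0.61). *Twist2* was lower (-4.33), where 2.78% of all genes were. After adjustment 0 of the 9 remained under 0.05 in limma. Osteoblast markers, again for *aadd*, resting, proliferative and hypertrophic libraries, summed to 557 to 1131, 515 to 1041, 754 to 1590 and 1398 to 3410. Osteoclast markers summed to 9.76 to 25.5, 16.8 to 25.9, 23.9 to 36.7 and 51.5 to 1351, and endothelial markers to 11.7 to 46.2, 15.7 to 22.7, 13.9 to 19 and 27.1 to 313. These 3 sums reached their highest values in hypertrophic replicates 2 and 3. For macrophage markers the ranges were 18.9 to 52.8, 16.7 to 22.7, 22.8 to 39.1 and 33.2 to 448, for erythroid markers 61.2 to 190, 35.9 to 82.4, 61.6 to 146 and 63.4 to 411, and for skeletal muscle markers 17.6 to 59, 6.83 to 9.65, 8.14 to 135 and 15.6 to 46.3. Cartilage matrix markers were at 2293 to 2844, 2487 to 3602, 2879 to 4731 and 654 to 2902. In single libraries up to 4 of the 10 osteoclast, 3 of the 10 osteoblast, 2 of the 10 endothelial, 2 of the 10 skeletal muscle, 3 of the 9 macrophage, 2 of the 7 erythroid and 1 of the 10 perichondrium markers were listed at 0. The part of these cell types in the levels of the antagonists was not tested. Hypertrophic replicate 1, whose osteoclast, endothelial and macrophage sums were closest to those of the other groups, had *Fstl1* at 65.9 NRPKM, next to 65 and 64.6 in replicates 2 and 3, and *Bambi* at 24.1, above both. That library was also above both for *Nog* (11.6 against 4.18 and 6.99), *Chrdl1* (12.3 against 3.61 and 3.8) and *Fst* (4.7 against 1.4 and 1.78). The same held for *Bmper* (12.6 against 8.89 and 6.76) and *Twsg1* (59.4 against 44 and 39.8). *Grem1* was at 0, below both, and *Chrd* at 0.253, between them.

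Of 15 BMP, GDF and activin genes, 12 were tested. In proliferative 3 were higher and 2 lower than in resting (2.56% and 2.97% of all genes tested). In hypertrophic 3 were higher and 2 lower than in proliferative (5.32% and 4.34%), and 4 and 4 than in resting (5.84% and 7.2%). In *aadd* 4 were higher and 1 lower than in resting (3.78% and 2.78%). Without hypertrophic replicate 1, 3 were higher and 3 lower in hypertrophic against proliferative (9.79% and 8.56% of all genes). Against resting the numbers were again 3 and 3 (9.42% and 9.83%). *Bmp4*, a ligand bound by noggin, chordin and gremlin 1, was at 8.98, 5.22 and 11 NRPKM in WT resting, 31.8, 17.8 and 25.5 in WT proliferative, 46.5, 20.8 and 28.2 in WT hypertrophic and 12.4, 22.4 and 11.5 in *aadd*. Resting was below the other 3 groups in every library. *Bmp4* rose by 1.59 log2 units from resting to proliferative (limma adjusted *P* = 0.11), by 1.90 from resting to hypertrophic (adjusted *P* = 0.045, or 1.58 without hypertrophic replicate 1) and by 0.87 from resting to *aadd* (adjusted *P* = 0.51). *Bmp2*, at 24.8, 14.6 and 17.3 NRPKM in resting and 63.5, 26.2 and 35.1 in hypertrophic, rose by 1.07 log2 units (adjusted *P* = 0.14), but did not meet the limits without hypertrophic replicate 1 (0.72, adjusted *P* = 0.12), and its proliferative values of 36.6, 13.8 and 20.9 overlapped both. *Bmp7* overlapped between the WT compartments, at 40.9, 15.8 and 28.4 NRPKM in resting, and was at 16.8, 10.4 and 11.7 in *aadd*, a fall by 1.05 log2 units from resting (adjusted *P* = 0.43).

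*Gdf5* and *Inhba* had other patterns than *Bmp4*. *Gdf5*, a growth factor of the forming joint that noggin binds, was at 17.4, 8.42 and 7.43 NRPKM in WT resting, 13.5, 9.71 and 6.63 in WT proliferative, 5.54, 0.667 and 0.87 in WT hypertrophic and 34.6, 26.4 and 24.4 in *aadd*. All *aadd* libraries were above all WT libraries. It fell by 2.69 log2 units from resting to hypertrophic (limma adjusted *P* = 0.097) and rose by 1.44 from resting to *aadd* (adjusted *P* = 0.25). *Inhba*, which encodes the activin subunit that follistatin binds, was at 13.8, 21.1 and 32.3 NRPKM in resting, 3.35, 2.1 and 3.9 in proliferative, 8.25, 6.56 and 15 in hypertrophic and 30.8, 16.8 and 22.6 in *aadd*. It was lowest in proliferative, by 2.77 log2 units against resting (adjusted *P* = 0.039), and higher again in hypertrophic by 1.59 (adjusted *P* = 0.15). *Bmp3*, at 2.87, 3.03 and 5.85 NRPKM in resting and 17.6, 38.9 and 48.9 in hypertrophic, rose by 3.09 log2 units (adjusted *P* = 0.019), and *Bmp8a*, at 0, 0.521 and 0.326 against 10.8, 21.8 and 26, by 5.95 (adjusted *P* = 0.01). Without hypertrophic replicate 1 these 4 log2 differences in hypertrophic were -3.59 for *Gdf5*, 1.68 for *Inhba*, 3.52 for *Bmp3* and 6.33 for *Bmp8a*, and each met the limits. *Gdf10* was lower in hypertrophic than in proliferative by 2.67 (adjusted *P* = 0.15), with the highest hypertrophic value, 13.3 NRPKM, in replicate 1, without which the log2 difference was -3.34. *Gdf6* was lower in proliferative than in resting, with a log2 difference of -1.92 (adjusted *P* = 0.23), and higher in *aadd* than in resting by 2.13 (adjusted *P* = 0.21).

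**Figure D4:**
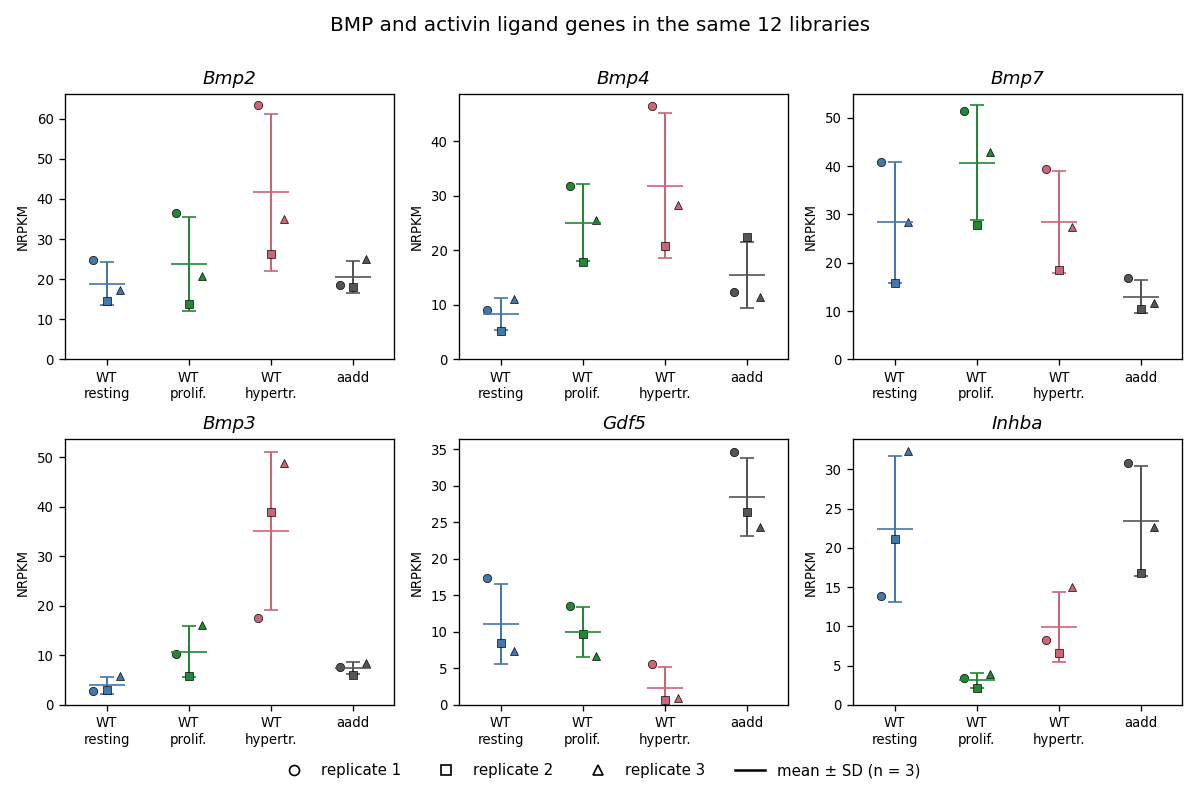
NRPKM (linear axis from 0, a separate scale for each gene) of 6 ligand genes in the 12 libraries, with symbols for replicates and lines for the mean ± SD (n = 3). *Bmp4* was lowest in resting, *Bmp3* highest in hypertrophic, *Gdf5* highest in *aadd* (24.4 to 34.6 NRPKM) and *Inhba* lowest in proliferative (2.1 to 3.9 NRPKM).

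Further antagonists outside the 9 numbered 21, of which 11 were tested. In proliferative against resting 0 were higher and 2 lower (2.56% and 2.97% of all genes), *Nbl1* (-2.13, limma adjusted *P* = 0.28) and *Smoc1* (-1.83). Both reached 5 NRPKM, the level of the filter, only in resting and *aadd* libraries. In hypertrophic 1 was lower than in proliferative (4.34% of all genes), *Gpc3* (-1.35). There 3 were lower than in resting (7.2%), *Nbl1* (-1.31), *Smoc1* (-2.63) and *Smoc2* (-1.04). These 4 differences were -1.90, -1.38, -2.46 and -1.28 without hypertrophic replicate 1. The list then had 2 higher and 2 lower against proliferative (9.79% and 8.56% of all genes). Against resting it had 2 higher and 5 lower (9.42% and 9.83%). In *aadd* 2 were higher than in resting (3.78% of all genes), *Cer1* (1.45, adjusted *P* = 0.27) and *Htra1* (1.29). *Cer1* encodes a secreted cystine-knot antagonist and *Nbl1* another member of that family, whereas HTRA1 is a protease. Among receptors and coreceptors, 9 of 12 were tested, of which 1 was lower in proliferative than in resting (2.97% of all genes). In hypertrophic 2 were lower than in proliferative (4.34%) and 2 than in resting (7.2%), and in *aadd* 1 was higher (3.78%). The type I receptor gene *Bmpr1b* was higher in *aadd* (28.5, 15.9 and 38.8 NRPKM) than in resting (7.77, 5.28 and 10.2) by 1.78 log2 units (adjusted *P* = 0.21), and it and the coreceptor gene *Rgma* were lower in hypertrophic than in resting (-1.98 and -2.75, or -2.56 and -3.56 without hypertrophic replicate 1). *Eng* was lower in proliferative than in resting (-1.15).

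Of 5 genes for chordin-cleaving proteases and regulators of BMP diffusion in the matrix, 4 were tested. In *aadd* 2 were higher than in resting (3.78% of all genes). *Sulf1*, a sulfatase that trims heparan sulfate, to which noggin binds, was at 21.3, 12.9 and 28.9 NRPKM in WT resting and 67, 57.1 and 60.2 in *aadd*, a rise of 1.61 log2 units (limma adjusted *P* = 0.18). It was lower in proliferative than in resting by 1.60, at 9.84, 4.11 and 6.86 NRPKM, and divided the hypertrophic libraries, with 6.61 NRPKM in replicate 1 and 65.1 and 87.3 in replicates 2 and 3. Without replicate 1 *Sulf1* was higher in hypertrophic than in proliferative (3.51, adjusted *P* = 0.0091) and than in resting (1.91, adjusted *P* = 0.02), and with it the log2 differences of 2.34 and 0.75 did not meet the limits. *Tll1*, a tolloid-like protease gene, was higher in proliferative (1.04) and in *aadd* (0.67) than in resting. All 10 intracellular genes were tested. In hypertrophic 2 were higher than in proliferative (5.32% of all genes) and 1 was higher than in resting (5.84%), and in *aadd* 1 was lower (2.78%). *Smad6*, an inhibitory SMAD induced by BMP signaling, was higher in hypertrophic than in proliferative by 2.13 log2 units (adjusted *P* = 0.15, or 2.25 without hypertrophic replicate 1). Its level was 8.89, 9.47 and 13.8 NRPKM in hypertrophic and 5.02, 1.52 and 1.61 in proliferative. Of 12 target genes of the pathway, 9 were tested, with 3 higher in proliferative than in resting (2.56% of all genes). In hypertrophic 1 was higher than in proliferative (5.32%), and 3 were higher and 1 lower than in resting (5.84% and 7.2%). In *aadd* 0 changed (6.56%). *Smad6* and *Smad7* are in both this list and the intracellular one. The target gene higher in hypertrophic than in proliferative was *Smad6*, counted above among the intracellular genes. *Dlx5*, a homeobox gene of maturing chondrocytes, was at 15.4, 6.81 and 5.84 NRPKM in resting, 56.1, 43.3 and 49.9 in proliferative, 82.6, 81.7 and 66.2 in hypertrophic and 8.8, 12.8 and 16.4 in *aadd*, and rose by 2.53 log2 units from resting to proliferative (adjusted *P* = 0.051) and by 3.15 to hypertrophic (adjusted *P* = 0.01, or 3.10 without hypertrophic replicate 1). Without that library the receptors had 1 higher and 2 lower against proliferative and 0 higher and 3 lower against resting. The intracellular genes had the same numbers as with it. The target genes had 2 higher and 1 lower against proliferative and 4 higher and 1 lower against resting. Of all genes, 9.79% were then higher and 8.56% lower against proliferative, and 9.42% and 9.83% against resting.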

How the data were processed

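LCM samples were amplified by the study and sequenced as 12 libraries. The deposited values are RPKM that the authors normalized further between libraries (NRPKM), on a linear scale before any filter on expression. Reads with more than 1 alignment and duplicate reads had been removed, alignment was to mm10, the submitters' processing notes name TopHat, and values came from GeneSpring. Strand use and the scaling between libraries are not given in the sources used here. Each of the 12 columns was matched to a sample by its title, with 0 columns left over.

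The table gives no counts, so no count test was run. Reads were estimated from 1635 sensory receptor and keratin-associated genes, of which 124 to 556 per library were above 0. The most frequent of their values above 0, scaled by length, was taken as 1 read, with a tolerance of 0.02 reads for a whole number. These estimates cover counting error only. Gene positions and exon lengths are those of GENCODE for GRCm38, the build of mm10, and upstream sequences those of RefSeq.

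Values were analysed as log2(NRPKM + 0.1) for genes that reached 5 NRPKM in 3 or more of the 12 libraries, with moderated tests in limma 3.58.1 under R 4.3.3, each pair fitted on its 6 libraries, and Benjamini-Hochberg adjustment over all 10936 genes tested. Python 3.11.15, pandas 2.3.3, numpy 2.4.6 and matplotlib 3.10.9 were used for the rest. The tests were tested on simulated data. All 9 antagonists are named in every group. Of the other pathway genes, values are given for 5 ligands (*Bmp2*, *Bmp4*, *Bmp7*, *Gdf5* and *Inhba*) and for up to 5 genes per comparison that met the limits without overlap between libraries, by size of the log2 difference. Further pathway genes that met the limits (*Smoc1*, *Smoc2*, *Gpc3*, *Htra1*, *Eng* and *Tll1*) were named after their values were seen. The members, the pathway and marker lists and the tests were chosen with earlier results of these data known. Alternatives were a constant of 1, no filter, quantile normalization, median-of-ratios rescaling, a fit on all 12 libraries, replicate number as a block, and each library left out in turn. Leaving out hypertrophic replicate 1 for the pathway genes outside the 9 was chosen after seeing the data.

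Proliferative and resting libraries of the same number deviated together from their group means, with correlations of 0.281, 0.179 and 0.198, and so count as paired. All values given are from fits without the pairing, and replicate number as a block changed no antagonist's call in this comparison. The labels do not say what the numbers mark. For the other comparisons at least 1 correlation was under 0.1.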

Additional observations from a re-analysis of the deposited data

How the results depend on the processing

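Numbers of changed antagonists were 1 (proliferative against resting), 4 (hypertrophic against proliferative), 5 (hypertrophic against resting), 1 (*aadd* against resting) and 7 (4 groups). With no filter the first 2 and the *aadd* number became 0, 2 and 0, rescaling gave 0 for the first and 2 for *aadd*, quantile normalization 2 for *aadd*, all 12 libraries in the fit 0 for the first and 1 for *aadd*, *Bambi* in place of *Chrdl1*, and a constant of 1 gave 3 for hypertrophic against resting. Leaving out single libraries gave 0 to 2, 1 to 4, 2 to 6, 0 to 1 and 4 to 7 in the order above. With replicate number as a block they were 1, 3, 5, 2 and 7. The block took the hypertrophic fall of *Chrdl1* from proliferative over the *P* limit (limma adjusted *P* = 0.33) and brought *Bambi* in *aadd* under it, and it changed no other pairwise call. Libraries correlated best with their own number in 6 of 6 cases for proliferative against resting. In the other pairwise comparisons, in the order above, they did in 3, 6 and 3 of 6 cases. For hypertrophic against resting the correlations were small (0.066, 0.063 and 0.111), and whether those libraries are paired was not settled.

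Directions turned only for differences that had not met the limits. *Nog* in proliferative against resting was -0.17 without resting replicate 2 and -0.05 without proliferative replicate 3, and *Fst* was -0.09 without resting replicate 3 and -0.03 without proliferative replicate 1. Over single libraries left out, these ranged from -0.17 to 0.15 and from -0.09 to 0.55. In *aadd* against resting, *Nog* was -0.01 after rescaling, -0.18 without resting replicate 2 and -0.23 without *aadd* replicate 1, and *Bmper* was -0.04 without resting replicate 2, with ranges of -0.23 to 0.14 and -0.04 to 0.33. The causes were not tested.

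Over all genes, 605, 1057, 1426 and 717 changed in the 4 comparisons, and with no filter 1495, 1929, 2537 and 1267. Hypertrophic against proliferative gave 2007 without hypertrophic replicate 1 and 658 without hypertrophic replicate 3. Of the genes changed between proliferative and resting, 46.3% were higher in proliferative, and 62.9% with no filter and 35.8% without proliferative replicate 1. No scaling moved the median of all genes by over 0.1 log2 units. Depth limits *Chrd*, *Grem1* and *Fst* most, each with under 10 estimated reads in at least 1 library.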

Other observations

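The antagonists did not follow a common course over the 12 libraries. The following values of Pearson's r are descriptions over 12 libraries that share the groups above, with no test. *Fstl1* and *Bambi* ran against each other with r of -0.89, and *Grem1* and *Bambi* with -0.87, while *Fstl1* and *Grem1* had 0.73. *Nog* and *Bmper* ran together at 0.84, as did *Chrdl1* and *Twsg1* at 0.83 and *Bmper* and *Twsg1* at 0.8. *Fst* was at -0.08 to *Fstl1* and 0.15 to *Bambi*.

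Among the 10936 genes tested, those most like *Fstl1* were *Stxbp5* (r of 0.978), *Cbx6* (0.97) and *Adamtsl3* (0.97), and those most like *Bambi* were *Pltp* (0.955), *Bcl7a* (0.941) and *Rasa3* (0.933). *Bmper* was closest to *Phlpp2* (0.962), *Tgfbi* (0.935) and *Tmem165* (0.921), and *Nog* to *Uap1* (0.955), *Serpina3n* (0.937) and *Pdxdc1* (0.937). For *Grem1* they were *2010111I01Rik* (0.942), *Neil3* (0.939) and *Gm20071* (0.917), for *Chrdl1* *Sec24a* (0.939), *Ints6* (0.926) and *Tbp* (0.923), for *Twsg1* *Hs3st3a1* (0.916), *Pwwp2a* (0.911) and *Derl2* (0.905), and for *Fst* *Gdpgp1* (0.918), *Rpl7l1* (0.871) and *Rps27a* (0.868).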
